A study of Homo sapiens with 4 samples.

Results

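The genes of neurotransmitter receptors were examined for binding of SPIB, an ETS-family transcription factor, in H1703 cells, an established human lung squamous carcinoma line. The members are the protein-coding RefSeq genes whose symbols begin with the stems of the GABA, glutamate, acetylcholine, glycine, serotonin and dopamine receptor families. Of 99 genes with such symbols, the 4 HTRA genes, which encode serine proteases, and 1 gene of a receptor-interacting protein were left out. The remaining 94 of 20037 protein-coding genes on the assembled chromosomes were used. They fall into 62 genes of ligand-gated channels and 32 of G protein-coupled receptors. The rule reads gene symbols only.

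Per the labels, SPIB was overexpressed in all the cells, and the anti-FLAG M2 antibody was used to pull down the bound chromatin. Attached cells and suspended cells each gave 1 chromatin immunoprecipitation (ChIP) library and 1 input library (sonicated DNA without the antibody step). The labels' treatment text names 24 h of suspension for all 4 libraries, so the condition label and title were used to tell them apart. H1703 cells are not neurons, the level of the receptor transcripts was not analysed here, and no library without the overexpressed factor was used here. With 1 ChIP library per condition there is no replicate check, and every comparison describes these libraries.

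Neurotransmitter receptors receive the chemical signal at synapses. Ligand-gated channels are assembled from several subunits around a pore that opens when the transmitter binds, and each subunit has a gene of its own. G protein-coupled receptors cross the membrane as single chains and signal through G proteins, more slowly. Most of these genes are used mainly in neurons, and many of them are held silent in other cells by the repressor REST, which binds a DNA element called RE1. SPIB and the other ETS factors recognise sites built around the letters GGAA.

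Depth was similar in the ChIP libraries, with 21108364 filtered tags from attached and 20766909 from suspended cells. The input libraries held 15878452 and 21437074 tags. The authors' lists hold 462 attached and 9024 suspended peaks, so the receptor genes could be found far more often in the suspended list. A peak was assigned to a gene when its summit, the position of highest tag density, fell inside the gene span or in the 5 kb on either side. Fold and false discovery rate (FDR) are the authors' values for each peak. Fold is a ratio, the enrichment of ChIP tags over background, and FDR is in percent.

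The receptor peak of highest fold in both lists lay at the start of HTR5A, a serotonin receptor that signals through inhibitory G proteins. Its sequence is shown because the RE1 letters occur in it 3 times. The 234 bases below are the part of the RefSeq promoter window (250 bases before to 50 after a gene's start, GRCh38.p14) that the attached peak covers, chr7:155070074-155070307, plus strand, 5′ to 3′. Capitals mark the arms of RE1 that were searched for, CAGCACC and GGACAG with 2 bases between them.

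HTR5A: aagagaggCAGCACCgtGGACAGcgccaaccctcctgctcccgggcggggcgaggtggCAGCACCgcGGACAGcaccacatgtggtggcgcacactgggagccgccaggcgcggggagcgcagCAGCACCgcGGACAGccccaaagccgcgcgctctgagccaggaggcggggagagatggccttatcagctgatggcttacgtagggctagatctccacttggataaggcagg

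The same arms were found in the promoter windows of 2 further receptor genes, and all 5 matches are set side by side to show how alike they are. DRD3 encodes a dopamine receptor and GRIA2 the AMPA receptor subunit that makes the channel impermeable to calcium. The matches lie at chr7:155070079-155070100, chr7:155070129-155070150 and chr7:155070194-155070215 on the plus strand, and at chr3:114178962-114178983 and chr4:157220388-157220409 on the minus strand. The strand is that of the match, and the capitals mark the arms as above.

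HTR5A, match 1: aggCAGCACCgtGGACAGcgcc
HTR5A, match 2: tggCAGCACCgcGGACAGcacc
HTR5A, match 3: cagCAGCACCgcGGACAGcccc
DRD3: tttCAGCACCaaGGACAGaacc
GRIA2: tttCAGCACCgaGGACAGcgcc

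A promoter window was found in the RefSeq table for 72 of the 94 members, 100 windows in all because some genes have several listed starts. The arms stood in 3 of these 100 windows (3%) and in 16 of 22199 windows of all protein-coding genes (0.0721%), counted on both strands. At HTR5A the attached peak held 39 tags (95% Poisson interval 27.7 to 53.3) and the suspended peak 45 (32.8 to 60.2). The attached summit lay 145 bp and the suspended summit 174 bp before the listed start, among the 3 matches. The DRD3 peak, in the suspended list alone, held 9 tags (4.12 to 17.1) and had its summit 4 bp from the centre of the match. At GRIA2 no peak was called in either list, and the nearest suspended summit was 248156 bp away. The letters were therefore under a peak in 2 of the 3 receptor genes that hold them. A match describes letters only, and REST itself was not measured here.

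**Figure D1:**
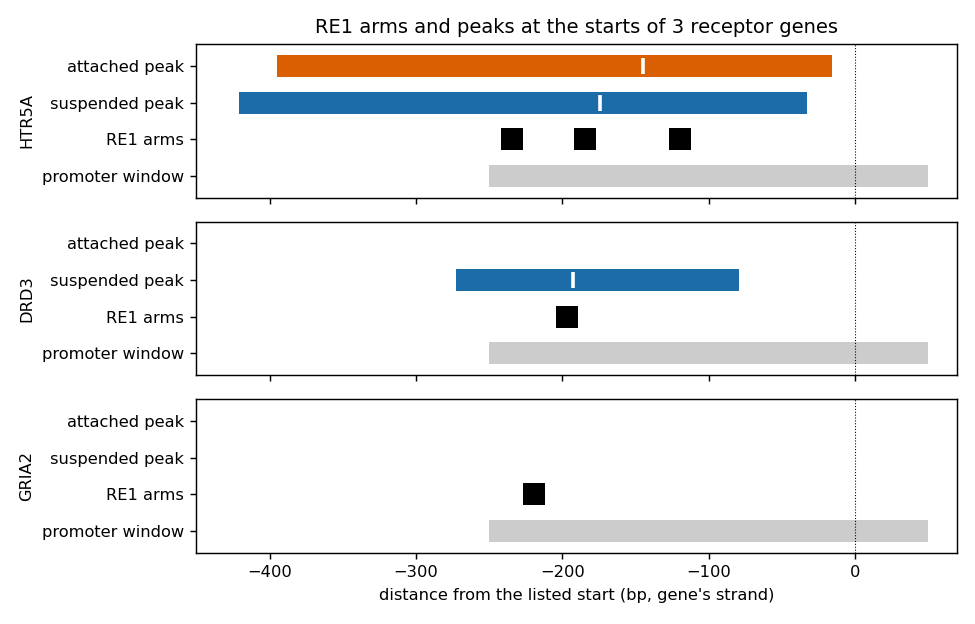
Distance in bp from the listed start (0, dotted line; negative values lie before it) of the promoter window (grey), the RE1 arms (black) and the attached (orange) and suspended (blue) peaks at HTR5A, DRD3 and GRIA2, with white ticks at the summits. Both HTR5A peaks cover the 3 matches, the suspended DRD3 peak covers 1 match, and GRIA2 has a match and no peak.

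The letters GGAAG, an ETS core, stood in 65 of the 100 receptor windows (65.0%, Clopper-Pearson 95% interval 54.8 to 74.3) and in 73.7% of all windows, on either strand. The shorter GGAA, which GGAAG contains, stood in 97 of 100 and in 95.1% of all windows. The longer GAGGAAG stood in 17 of 100 and in 14.4% of all. Receptor windows were thus close to all promoters in each of these counts. The HTR5A window holds no GGAA on either strand. It covers 217 of the 388 bp of the suspended peak, and the rest of the peak was not searched. The DRD3 window with the RE1 arms holds 2 GGAA, 1 of them as GGAAG. The other DRD3 window, of which the suspended peak covers only 47 bp, holds 6 GGAA, 1 of them as GAGGAAG. The windows overlapped by peaks at GLRA1 and GRM4 hold 3 GGAA each and no GGAAG. The counts of GGAA are for whole windows, and whether the letters lie under the peaks was not checked. Of the 7 receptor windows overlapped by a suspended peak, 4 hold GGAAG, and these belong to only 2 genes, DRD3 and GRIN2B. Of the 1768 windows of all protein-coding genes overlapped by a suspended peak, 1461 hold it. The GRIN2B window at the start nearest the summit holds 9 GGAA, 6 of them as GGAAG.

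In attached cells 4 of the 94 receptor genes had a peak (4.26%, interval 1.17 to 10.5), and 1.86% of all protein-coding genes did. The background for genes of like span, computed as for the suspended list, was 2.46 genes (2.62%), within that interval. The 4 were HTR5A, GLRA1, GRM4 and GRID1. GLRA1 encodes the main adult subunit of the glycine receptor, GRM4 a presynaptic glutamate receptor that lowers transmitter release, and GRID1 a delta receptor that works as a synaptic organiser. HTR5A had a fold of 34.48, rank 6 of 462 peaks, and GLRA1 a fold of 21.07 with 35 tags. Both had an authors' FDR of 0% and a summit within 1 kb of a gene end, where 2 of 94 receptors and 0.809% of all protein-coding genes had one. The other two lay far inside the genes. GRM4 had 28 tags at a fold of 10.27 with an FDR of 98.09%, and GRID1 had 12 tags at a fold of 15.5 with an FDR of 100%. An FDR this high was usual in the attached list, which had a median of 100% and 25 of 462 peaks at 5% or less. HTR5A and GLRA1 hold 2 of these 25.

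The attached sites of HTR5A, GLRA1 and GRM4 were called again in suspended cells, at nearly the same summit. The summits lay 29, 35 and 24 bp apart, and the overlap covered at least 80.0% of the narrower peak. GLRA1 held 35 attached tags (24.4 to 48.7) and 39 suspended tags (27.7 to 53.3). GRM4 held 28 (18.6 to 40.5) and 31 (21.1 to 44.0). In all 3 genes the suspended count was a little above the attached one, and the intervals overlap widely. Per filtered ChIP tag of the library, the suspended value was 1.17 times the attached one at HTR5A (exact interval for counting error 0.747 to 1.85), 1.13 times at GLRA1 (0.699 to 1.84) and 1.13 times at GRM4 (0.653 to 1.95). Each interval includes 1, so a difference in tags between the conditions was not detectable at this depth. The peak widths were 379 and 388 bp at HTR5A, 382 and 340 bp at GLRA1, and 397 and 344 bp at GRM4. The authors' FDR at the GRM4 site was 98.09% in the attached and 0% in the suspended list. The attached GRID1 site did not overlap a suspended peak, and the 3 suspended peaks of GRID1 lay elsewhere in the gene.

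In suspended cells 25 of the 94 receptor genes had a peak (26.6%, 18.0 to 36.7), close to the 28.6% of all protein-coding genes. Receptor genes are long, with a median span of 63315 bp against 24115 bp for all protein-coding genes, and long genes hold peaks more often. The share with a suspended peak was 9.98% in the shortest and 49.3% in the longest of 20 equal bins of gene span. Giving each receptor gene the share of its own bin yields a span-matched background of 32.5 genes, a difference of -7.47 genes between observed and background. The background lies within the 95% interval of the observed share, which spans 18.0 to 36.7% against 34.5%. The difference was below 0 under every alternative tried. Without the flanks, 17 genes had a summit inside (18.1%, 10.9 to 27.4) against a background of 27.8%, just outside the interval.

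**Figure D2:**
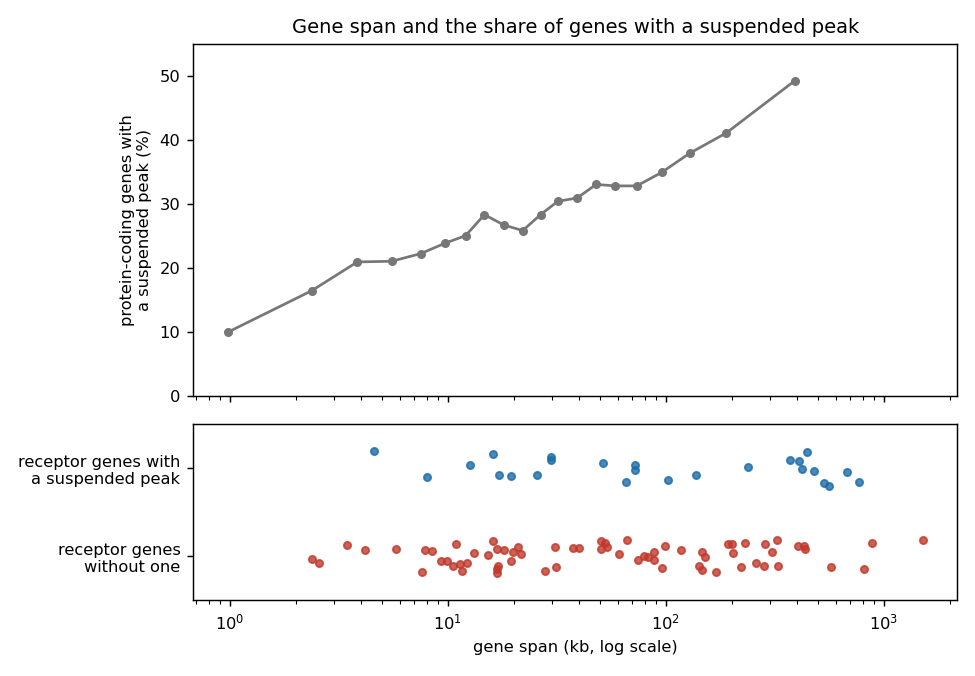
Upper panel, percent of protein-coding genes with a suspended peak in the gene or within 5 kb (y) against the median gene span of 20 bins (x, kb, log scale); lower panel, the span of each of the 94 receptor genes, with those that have a suspended peak (25, blue) above those without (69, red), spread vertically for legibility. The share is 9.98% in the shortest and 49.3% in the longest bin, and receptor genes with and without a peak cover much the same range of spans.

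The families differed widely in their counts. Glutamate receptor genes had a peak in 13 of 26 members (50%, 29.9 to 70.1; span-matched background 10.9). All other receptor genes together had one in 12 of 68 (17.6%, 9.46 to 28.8; background 21.6). G protein-coupled receptor genes had one in 12 of 32 (37.5%, 21.1 to 56.3; background 10.8). Ligand-gated channel genes had one in 13 of 62 (21.0%, 11.7 to 33.2; background 21.6). Without the GABA-A receptor genes, the channel genes had one in 13 of 43 (30.2%, 17.2 to 46.1; background 14.9). Leaving out a family without peaks can only raise the share, so this count is a description only. The intervals of the G protein-coupled and the ligand-gated channel genes overlap, and no difference between families was tested. Members that lie side by side on a chromosome are not independent of one another.

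**Figure D3:**
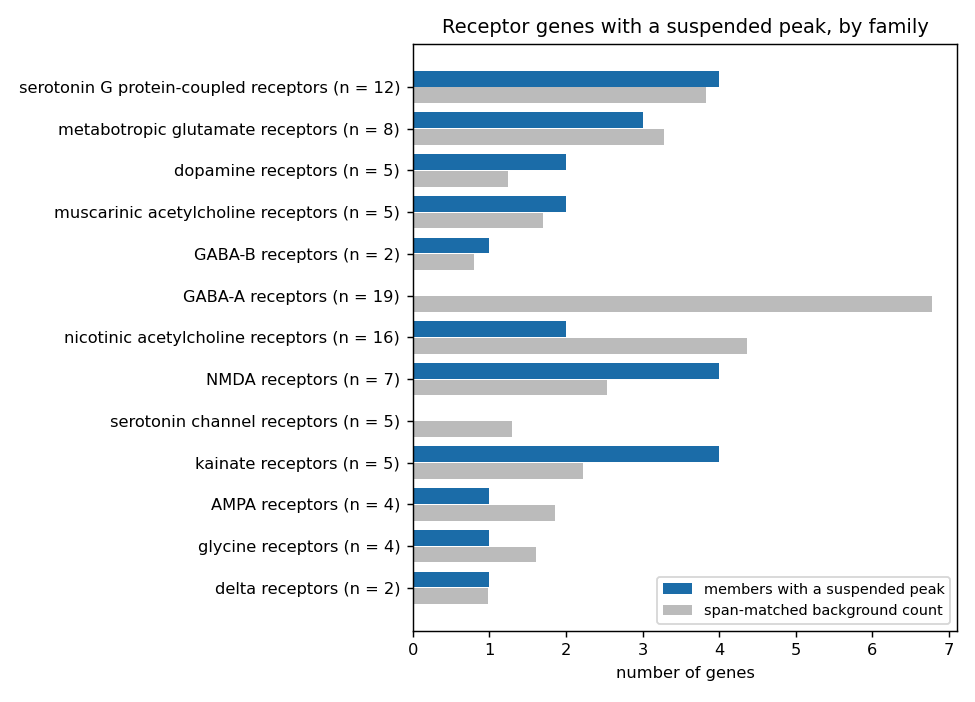
Number of genes with a suspended peak (blue) and span-matched background count (grey) in each of the 13 receptor families, with the number of genes in the family in brackets; G protein-coupled receptors are above the ligand-gated channels. Kainate (4 of 5) and NMDA (4 of 7) receptor genes exceed their background counts of 2.22 and 2.54, and GABA-A receptor genes (0 of 19) fall short of 6.77. The intervals of the kainate (28.4 to 99.5%) and NMDA (18.4 to 90.1%) shares include their background shares of 44.3% and 36.2%.

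The GABA-A receptor genes, which encode the subunits of the main inhibitory channel of the brain, had no peak in either list. The family has 19 members. The span-matched background was 6.77 genes, or 35.6%, and a count of 0 of 19 has an upper 95% bound of 17.6%. The nearest suspended summit lay between 21.7 and 1550 kb from these genes, with a median of 670 kb. Many of them share a chromosome, with 4 on chromosome 4, 5 on chromosome 5, 3 on chromosome 15 and 3 on chromosome X. The surroundings were poor in peaks as well. The 1 Mb windows that hold these genes had a median of 1 suspended peak and at most 6, where the median over all protein-coding genes was 4. The part of this in the missing peaks was not tested. Among the 75 other receptor genes, 25 (33.3%, 22.9 to 45.2) had a suspended peak, against a background of 25.7. The choice to leave out a family without peaks raises this share.

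The other inhibitory receptor families were near their background counts. GLRA1 was the 1 glycine receptor gene of 4 with a peak (background 1.60). Its suspended peak of 39 tags had a fold of 18.97 and a summit 105 bp after the listed start, at chromosome 5, 151924530 to 151924869 (hg38). A second GLRA1 peak inside the gene held 8 tags at a fold of 16.39. GLRA2, GLRA3 and GLRB had none. Of the 2 subunit genes of the GABA-B receptor, which is G protein-coupled (background 0.797), GABBR2 had a peak deep inside the gene, with 8 tags (3.45 to 15.8) at a fold of 10.78 (FDR 5.18%), and GABBR1 had none. With peaks limited to an FDR of 5% or less, GABBR2 is the 1 receptor gene that loses its place among the 25.

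Kainate receptor genes, whose products tune synaptic excitability before and after the cleft, had a peak in 4 of 5 members. GRIK2 had 3 peaks, at folds of 16.22, 14.9 and 9.83 and with 16, 10 and 12 tags. The GRIK2 peak with 12 tags lay 711 bp after a listed start. GRIK3 had 2, the stronger with 29 tags (19.4 to 41.6) at a fold of 17.16 (FDR 0%), 110120 bp inside the gene. GRIK4 had 1 peak far inside, with 11 tags at a fold of 10.43. The GRIK5 peak held 19 tags at a fold of 9.64 and lay 890 bp beyond the end opposite the listed start, with another protein-coding gene within 5 kb. GRIK1 had none.

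NMDA receptor genes encode the glutamate channels that need both transmitter and depolarisation to open, and 4 of 7 had a peak. GRIN1 encodes the obligatory subunit and held 3 weak peaks of 10 to 11 tags, at folds between 7.56 and 12.47. GRIN2B, a subunit prominent in early development, held the receptor peak with most tags. It had 79 tags (62.5 to 98.5) over 1103 bp at chromosome 12, 13981213 to 13982315, with a summit 27 bp after a listed start, but a fold of only 4.52. GRIN2B had a further peak of 15 tags inside. GRIN2C and GRIN2D had peaks outside the gene, 2913 and 2408 bp from an end. The GRIN2C peak, with 15 tags at a fold of 6.95, was nearer to an end of FDXR (1948 bp), a mitochondrial enzyme gene. The GRIN2D peak, with 38 tags over 673 bp at a fold of 5.84, lay inside KDELR1, which encodes a retrieval receptor of the endoplasmic reticulum. GRIN1, GRIN2C, GRIN2D and GRIN3B lie in 1 Mb windows crowded with peaks (at least 11 in a window), and the part of this in the NMDA count was not tested. GRIN2A, GRIN3A and GRIN3B had no peak.

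AMPA receptor genes had a suspended peak in 1 of 4 members (background 1.86) and delta receptor genes in 1 of 2 (background 0.985). GRIA4 encodes an AMPA channel subunit, and its peak held 9 tags (4.12 to 17.1) at a fold of 17.39, far inside the gene. The 3 suspended GRID1 peaks held 11, 13 and 18 tags at folds of 9.8, 7.99 and 5.78. GRIA1, GRIA2 and GRIA3 had none.

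Metabotropic glutamate receptor genes had a peak in 3 of 8 members, about the background count of 3.28. GRM4 had 5 peaks, the most of any receptor gene, with 31, 22, 21, 21 and 12 tags. The strongest, with 31 tags at a fold of 17.48, was the site also listed in attached cells, at chromosome 6, 34115359 to 34115702. The peaks of 22 tags (fold 7.02) and of 21 tags at a fold of 7.12 lay on either side of a listed start, at 184 and -414 bp from it. GRM4 lies in a crowded 1 Mb window with 20 suspended peaks, and the part of this in its count was not tested. The GRM5 peak held 8 tags at a fold of 14.9, far inside the gene. No peak was called at GRM2, GRM3 or GRM7, among others.

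Dopamine, serotonin and muscarinic receptor genes contributed some of the highest folds. They had a peak in 2 of 5, 4 of 12 and 2 of 5 members, against backgrounds of 1.24, 3.83 and 1.69. The serotonin count covers the G protein-coupled receptors only, and the serotonin-gated channels are given separately below. DRD2, the receptor on which antipsychotic drugs act, had 22 tags (13.8 to 33.3) at a fold of 22.06, rank 52 of 9024, with the summit 890 bp inside an end of the gene at chromosome 11, 113474355 to 113474662. HTR1A, a serotonin autoreceptor, had 23 tags (14.6 to 34.5) at a fold of 18.21. The HTR1A summit lay 859 bp before the listed start, in the peak at chromosome 5, 63963104 to 63963421. CHRM4, a muscarinic receptor coupled to inhibitory G proteins, had 29 tags (19.4 to 41.6) at a fold of 17.6, 962 bp before the listed start at chromosome 11, 46392495 to 46392847. The same CHRM4 peak lies within 5 kb of AMBRA1, an autophagy gene, whose nearer end was 3674 bp away. The FDR was 0% at HTR1A and CHRM4 and 0.27% at DRD2.

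The remaining peaks of these families were weaker. The DRD3 peak with the RE1 letters had a fold of 12.29 (FDR 4.96%). CHRM3, a muscarinic receptor of glands and smooth muscle, had 9 tags at a fold of 12.42, 187789 bp inside the gene. HTR1D, a target of migraine drugs, had 13 tags at a fold of 8.26, 2653 bp inside. HTR6 had 17 tags at a fold of 5.59, and that summit lay 4912 bp before the start, just inside the limit of 5 kb, and 1511 bp from an end of a gene annotated as MICOS10-NBL1. No peak was called at DRD1, DRD4, DRD5, CHRM1, CHRM2, CHRM5, HTR1B, HTR1E, HTR1F, HTR2A, HTR2B, HTR2C, HTR4 or HTR7.

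Nicotinic acetylcholine receptor genes, the channels of the neuromuscular junction and of autonomic ganglia, had a peak in 2 of 16 members (background 4.36). CHRNA5, which has been linked to nicotine dependence and lung cancer risk, had 16 tags (9.15 to 26.0) at a fold of 8.82, 556 bp inside an end at chromosome 15, 78565943 to 78566219. CHRNB1, a muscle subunit, had 41 tags over 718 bp but the lowest fold of the receptor peaks, 3.64. The CHRNB1 summit lay 2216 bp before the listed start and 2092 bp from an end of FGF11, in a 1 Mb window with 53 suspended peaks. The others, CHRNA1, CHRNA2, CHRNA3, CHRNA4, CHRNA6, CHRNA7, CHRNA9, CHRNA10, CHRNB2, CHRNB3, CHRNB4, CHRND, CHRNE and CHRNG, had none. CHRNB2 was the nearest miss among all receptor genes, with a summit 9022 bp away. HTR3A, HTR3B, HTR3C, HTR3D and HTR3E, the serotonin-gated channels, had none either (background 1.30).

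**Figure D4:**
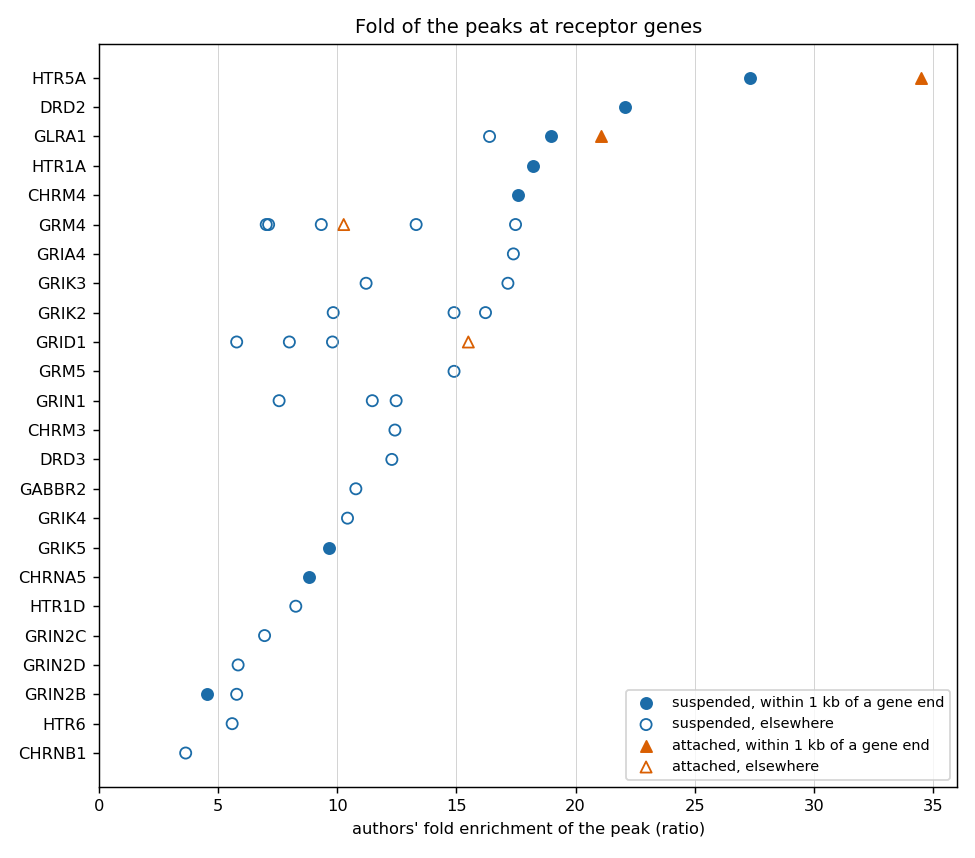
The authors' fold (enrichment of ChIP tags over background as a ratio, x) of each suspended (circles) and attached (triangles) peak at 24 of the 25 receptor genes with a peak (y), filled where the summit lies within 1 kb of a gene end. The filled symbols of HTR5A, DRD2, GLRA1, HTR1A and CHRM4 are at the top, from 17.6 to 34.48, and those of GRIK5, CHRNA5 and GRIN2B lie lower, from 4.52 to 9.64.

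Receptor peaks at gene ends had a higher median fold than the other receptor peaks, with overlapping ranges. At a gene end, 9 of 94 receptor genes had a suspended summit within 1 kb (9.57%, 4.47 to 17.4), where 13.8% of all protein-coding genes did and the span-matched background was 12.5 genes. The count was 3 within 500 bp. Among these 9 were HTR5A, DRD2, GLRA1, HTR1A, CHRM4, GRIK5, CHRNA5 and GRIN2B. Their 9 peaks had a median fold of 17.6 (range 4.52 to 27.31), and the other 29 receptor peaks 10.43 (3.64 to 17.48). Over the whole suspended list the order was the opposite. The 2638 peaks within 1 kb of an end of a protein-coding gene had a median fold of 7.265, and the 6343 others on assembled chromosomes 9.87. The receptor peaks at gene ends held a median of 29 tags and those of all genes 23, in median widths of 340 and 369 bp. All 9 had an FDR of at most 1.97%. Of the 38 receptor peaks, 10 were among the 451 peaks of highest fold (the top 5%), and 14 had a fold below the list's median of 9.1. These are descriptions of 1 library without a test.

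With the listed starts of the promoter table in place of gene ends, 8 of 72 receptor genes (11.1%, 4.92 to 20.7) had a suspended summit within 1 kb of a start, against 14.7% of protein-coding genes with a window. They were HTR5A, GLRA1, HTR1A, CHRM4, GRIN2B, GRM4, GRIK2 and DRD3. In attached cells HTR5A and GLRA1 did (2.78%, against 0.77%). DRD2 and CHRNA5 are among the 22 members with no window in the table, so the start of these genes could not be told from the end.

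Other genes of chemical transmission were set beside the receptors in 3 lists. Auxiliary subunits and anchoring proteins of receptors had a suspended peak in 20 of 42 members (47.6%, 32.0 to 63.6; span-matched background 14.9). Of the 42 genes, 10 lie in 1 Mb windows crowded with peaks, as do 9 of the 94 receptor genes and 3431 of all 20037. Span matching does not allow for this, and the part of it in the count was not tested. The highest of this list were SHANK2 (fold 33.2) and DLG2 (19.87), both postsynaptic scaffold genes, GPHN (16.39), the anchor of glycine and GABA-A receptors, and GRIP1 (14.56), an AMPA receptor scaffold. In attached cells SHANK2 (fold 31.09, FDR 5.56%), SHANK1 (17.24, FDR 100%) and GABARAP (8.08, FDR 57.98%) had one. Genes of transmitter synthesis, packaging and removal had a suspended peak in 12 of 39 (30.8%, 17.0 to 47.6; background 12.2). TPH2, the enzyme of serotonin synthesis in neurons, led with 19 tags at a fold of 24.0 and a summit 45 bp after its listed start. It was followed by TPH1 (14.9), the related enzyme outside the brain, and GAD2 (13.11), which makes GABA. In attached cells SLC6A13 (8.62), a GABA transporter gene, had one, and CHAT and SLC18A3, neighbours in 1 locus, shared a peak (9.58), both at an FDR of 100%. Receptors of other transmitters had a suspended peak in 7 of 31 (22.6%, 9.59 to 41.1; background 8.65), led by the histamine receptor genes HRH3 (14.04) and HRH1 (11.92), then P2RX4 (10.69), an ATP-gated channel, and ADORA3 (10.14), an adenosine receptor. HRH3 was also in the attached list (8.74, FDR 100%). In raw share the receptor genes at 26.6% thus lay between the other receptors and the synthesis genes, with overlapping intervals. This order does not allow for gene span, with medians of 63315, 23978 and 47942 bp for receptor genes, other receptors and synthesis genes. Their span-matched background shares were 34.5%, 27.9% and 31.2%, each within the interval of the observed share. The observed share was furthest below its background in the receptor genes, of which the GABA-A family had 0 of 19 against a background of 6.77.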

How the data were processed

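Per the file headers, the authors used MACS 1.4.2 to call peaks in each ChIP library, with an input library as control, a p cutoff of 1e-05 and 1 tag kept per position. The submitters' processing notes name hg38 as the build. The name of the aligner was not given in the sources used here. The deposited tags are raw counts per peak, the authors' fold is a ratio, and the authors' FDR is a percent. The deposited score, whose column name was lost, was read as minus 10 times log10 of the p-value from its place and range. The modelled fragment lengths (d) were 58 and 63 bp and the tags 50 bp long.

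Genes came from a RefSeq table of GRCh38.p14, the assembly of hg38, and promoters from a RefSeq table of the same build. Python 3.11.15, numpy 2.4.6, pandas 2.3.3, SciPy 1.17.1 and matplotlib 3.10.9 were used. Shared peaks overlap by at least 1 bp. The span-matched background sums, over members, the share of protein-coding genes with a peak in the same of 20 span bins. Intervals are 95% Clopper-Pearson for shares and exact Poisson for tags, cover counting error only, and treat neighbouring genes as independent. The assignment, background and motif steps were tested on simulated data. The members and lists were chosen with earlier results of these data known. Genes to be named were all members with an attached peak or a suspended peak at a gene end, the 15 others of highest suspended fold, which takes in every member with a peak, and the member with the most peaks. In each list of other genes they were the 4 of highest fold and any with an attached peak. The RE1 search, the listed starts and the comparison of folds by position were added after values were seen. The groups of all glutamate receptor genes, of all others, and of members without the GABA-A family were not planned in advance. Some genes that this rule takes in are not reported here.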

Additional observations from a re-analysis of the deposited data

How the results depend on the processing

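No paired analysis was possible because each condition has 1 ChIP library. With 25 suspended receptor genes as reported, other flanks (0 to 10 kb), peak overlap in place of the summit, an FDR of at most 5% and the HTRA genes gave 17 to 27, all within 1.5 times, and the peaks in the upper part of the list, above its middle score, gave 15. The difference from the span-matched background stayed below 0 in all 10 alternatives, between -9.11 and -3.38, and was -6.81 without windows crowded with peaks. The attached count fell from 4 to 2 at an FDR of at most 5%. The count at gene ends was 3 in place of 9 within 500 bp. The ligand-gated channels fell from 13 to 7 genes with the same limit on score, by an alternative added after seeing the data. The longer ETS core stood in 17 windows in place of 65. The share of promoter windows with the RE1 arms that overlap a suspended peak was 68.8% for exact letters, 28.1% with up to 1 mismatch and 10.6% with up to 2 mismatches, both also added after seeing the data. Depth limits single peaks, most of which hold few tags, and a gene without a peak is not shown to be unbound.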

Other observations

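Of the 16 windows of protein-coding genes that hold both RE1 arms exactly, 11 overlapped a suspended peak (68.8%, Clopper-Pearson 95% interval 41.3 to 89.0), as did 7.96% of all 22199 windows. In each of the 11 the matched letters lay whole inside the peak. The share was 28.1% with up to 1 mismatch and 10.6% with up to 2 mismatches. In the attached list the numbers were 3 of 16 windows and 0.383% of all. The 16 windows belong to 14 genes, since some windows of 1 gene overlap, and the interval above treats such windows as independent. By gene, 9 of the 14 had a suspended peak there and 2 an attached one. Of all 15843 genes with a window, 1511 and 77 did. Besides HTR5A and DRD3 the 9 were OGDHL (fold 14.34, also in the attached list), SYN1 (14.34), a synaptic vesicle protein gene, RPH3A (14.31), a vesicle protein gene, the homeobox genes BSX (13.41) and LHX3 (6.94), TTC9B (9.25) and HHATL (8.19). The windows of GRIA2, GAD2, UCN, FAM163B and TMEM179 hold the arms and were overlapped by no peak in either list. HTR5A was the 1 gene with 3 matches in a window, and its fold of 27.31 was the highest of the 9. In the windows that hold GGAAG the share under a suspended peak was 8.93% (8.50 to 9.38), and in those that hold GAGGAAG 11.7% (10.6 to 12.8), where that of all windows was 7.96% (7.61 to 8.33).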
